A study of Mus musculus with 45 samples.

Results

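Livers of Uhrf1hepKO mice (KO) sampled 24 h after partial hepatectomy were compared with KO livers sampled at baseline. The comparison was defined by the labels alone: 3 libraries labelled KO, 24 h, against the 3 labelled KO, baseline, which are 6 of the 45 libraries of the series. The mice were C57Bl/6, were 8 to 12 weeks old at surgery, ate a normal diet, and were operated in the morning. By its name the KO lacks Uhrf1 in hepatocytes, and both groups carry this knockout; the labels used here name neither the allele nor the Cre line. The sample descriptions of the baseline libraries, KO and WT, carry the name of a later time of the series. Whether the baseline livers were collected or processed with that later set was not tested. The labels also name no sham-operated group and no hour of the day for the baseline livers. Surgery, anesthesia and sampling hour therefore cannot be told apart in this comparison. The matching wild-type (WT) comparison, 3 livers at 24 h against 3 at baseline, shares no library with it and is given beside the results. The labels do not say that libraries of a group came from separate animals, and the spread behind each p-value may therefore be technical.

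Partial hepatectomy removes part of the liver, and the remaining hepatocytes leave quiescence, pass through G1, replicate their DNA and divide. Early in this course, interleukin-6 from liver macrophages acts through its receptor gp130 and the transcription factor STAT3, which switches on secreted acute phase proteins. Growth factors such as HGF then induce cyclin D1, E2F factors are released from retinoblastoma proteins, and genes for origin licensing and DNA synthesis follow. The remnant also takes up fat from the circulation and must keep up glucose, urea and bile acid metabolism during this time. Uhrf1 brings the DNA methyltransferase Dnmt1 to newly replicated DNA and is itself a gene of S phase.

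The 6 KO libraries held 13463089 to 18596560 counts. Albumin took 4.3 to 5.5% of all counts in the KO libraries at 24 h and 6.6 to 7.1% at baseline. The first principal component of these libraries carried 63.2% of the variance and separated the times. Levels below are CPM, counts divided by the library's total and scaled to a common total with TMM factors; they are not corrected for gene length and are compared only within a gene. Fold changes are log2 with their standard errors, and a gene was called at a Benjamini-Hochberg adjusted p under 0.05 in edgeR's quasi-likelihood test over 14090 genes. Uhrf1 (chromosome 17, 56303321 to 56323486, plus strand, mm10) stood at 0, 0.247 and 0.103 CPM at baseline and 1.09, 0.674 and 1.08 CPM at 24 h. All 3 libraries at 24 h were above all 3 at baseline, and all were at a low level (log2 fold change 2.91 ± 1.08, adjusted p = 0.0483). In WT livers it stood at 0.219, 0.644 and 0.382 CPM at baseline and 4.74, 2.81 and 1.52 CPM at 24 h, above every KO library of the same time except that WT baseline replicate 1 lay below KO baseline replicate 2. The rise in KO lost its call with any 1 of the 6 libraries left out, with adjusted p from 0.0549 to 0.145.

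In all, 3343 of 14090 genes (23.7%) were called between KO baseline and KO 24 h. Of these, 1623 (11.5% of all genes tested) rose and 1720 (12.2%) fell. At least 2-fold changes were seen in 569 of the genes that rose and 723 of those that fell, and at least 8-fold changes in 88 and 88. The libraries of the 2 times did not overlap for 3198 of the called genes (95.7%). Over all genes tested, 18.9% had every 24 h library above every baseline library and 21.1% had every one below. The median log2 fold change of all genes was −0.006.

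**Figure D1:**
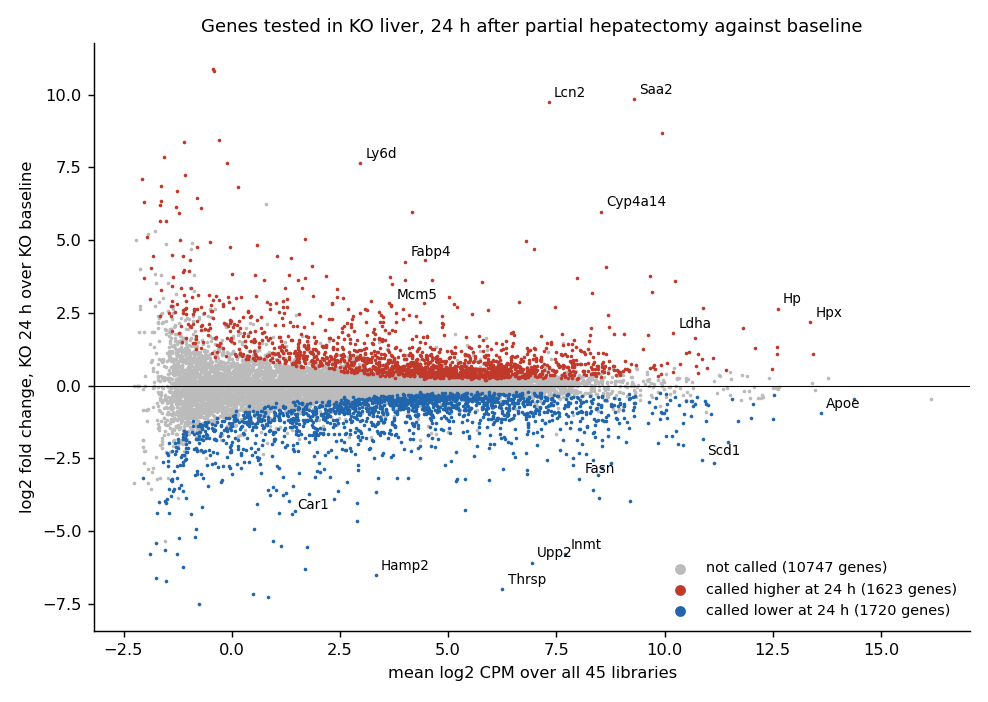
Each dot is 1 of the 14090 genes tested, placed by its mean log2 CPM over all 45 libraries (horizontal) and its log2 fold change in KO liver at 24 h against baseline (vertical); 1623 genes called higher are red, 1720 called lower are blue and the rest grey. Saa2 and Lcn2 lie at the top and Thrsp, Hamp2 and Upp2 near the bottom.

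Acute phase proteins, secreted by hepatocytes under interleukin-6 and STAT3, had the highest median fold change of the 48 lists described here. Of 30 genes tested, 26 rose and 1 fell (11.5% and 12.2% over all genes tested), with a median log2 change of 1.88 against −0.006 over all genes; 21 to 26 were called higher with 1 of the 6 libraries left out, and 0 lower without KO 24 h replicate 2 or KO baseline replicate 1. Saa2 (chromosome 7, 46751790 to 46754313, plus strand, mm10), a serum amyloid A protein carried on high-density lipoprotein, stood at 11.3, 17.3 and 10.5 CPM at baseline and 11478, 13865 and 10564 CPM at 24 h. Every 24 h library lay far above every baseline library (log2 fold change 9.84 ± 1.74, adjusted p = 9.75e-05). Saa1 followed with 25.7, 26.8 and 22.7 CPM at baseline and 9769, 11831 and 8964 CPM at 24 h (log2 fold change 8.67 ± 1.45, adjusted p = 4.69e-05), and since Saa1 and Saa2 are near-identical neighbours the counting could have moved reads between them. Lcn2, which binds bacterial siderophores, was at 2.46, 4.88 and 4.27 CPM at baseline and 2996, 3507 and 3558 CPM at 24 h (log2 fold change 9.75 ± 1.31, adjusted p = 1.86e-06).

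Haptoglobin and hemopexin rose, as did the fibrinogen chain Fgb and complement C3. Haptoglobin (Hp), which captures free hemoglobin, stood at 2538, 2178 and 2541 CPM at baseline and 14654, 16326 and 14241 CPM at 24 h (log2 fold change 2.64 ± 0.38, adjusted p = 3.2e-06). Hemopexin (Hpx), the heme carrier, stood at 4259, 3853 and 4047 CPM at baseline and 19417, 18640 and 17236 CPM at 24 h (log2 fold change 2.19 ± 0.31, adjusted p = 2.4e-06). Within each group these libraries lay close together, and the 2 groups were far apart. Fga and Fgb encode fibrinogen chains, and Fgb stood at 3816, 3506 and 4525 CPM at baseline and 8317, 7689 and 9440 CPM at 24 h (log2 fold change 1.10 ± 0.26, adjusted p = 0.00205). Complement C3 stood at 6940, 9083 and 8581 CPM at baseline and 19608, 17167 and 16212 CPM at 24 h (log2 fold change 1.11 ± 0.23, adjusted p = 0.000364). Apcs, the pentraxin serum amyloid P, stood at 64.4, 128 and 138 CPM at baseline and 1052, 961 and 988 CPM at 24 h (log2 fold change 3.18 ± 0.64, adjusted p = 0.000399). Mt1 and Mt2, the zinc-binding metallothioneins, rose too, by 3.71 and 4.69 on the log2 scale, although Mt2 shares 73.5% of its exon bases with an antisense gene.

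STAT factors bind DNA at TTCNNNGAA, which reads the same on both strands. In the 250 bases before the RefSeq start (build GRCm38.p6), this spelling was present for 6 of the 20 acute phase genes called higher that matched the promoter table (30%), against 8.13% of 27025 genes with a promoter. Apcs and Fgb are shown because both carried it and both rose. The Apcs window is chr1:172895055-172895304 and the Fgb window chr3:83049864-83050113, both on the minus strand, and capitals mark the match.
Apcs: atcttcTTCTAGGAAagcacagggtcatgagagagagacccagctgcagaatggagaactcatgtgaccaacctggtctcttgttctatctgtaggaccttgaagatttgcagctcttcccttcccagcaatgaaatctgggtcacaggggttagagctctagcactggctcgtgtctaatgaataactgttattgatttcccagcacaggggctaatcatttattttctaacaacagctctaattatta
Fgb: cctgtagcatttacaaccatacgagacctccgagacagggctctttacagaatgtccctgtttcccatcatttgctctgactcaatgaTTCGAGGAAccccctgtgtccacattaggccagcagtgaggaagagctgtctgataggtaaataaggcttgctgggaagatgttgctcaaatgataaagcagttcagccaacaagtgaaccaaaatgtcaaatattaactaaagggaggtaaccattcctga
A match of these letters describes the sequence and does not show that a factor bound there.

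In the same pathway, the list of interleukin-6 family receptors and STAT3 targets had 14 genes tested. Of these, 3 rose and 1 fell, against 11.5% and 12.2% over all genes tested. Socs3, the feedback inhibitor of this signal, stood at 3.94, 3.52 and 9.32 CPM at baseline and 38, 19.9 and 38.7 CPM at 24 h (log2 fold change 2.50 ± 0.62, adjusted p = 0.00331). Stat3 itself stood at 96.9, 126 and 120 CPM at baseline and 202, 160 and 217 CPM at 24 h (log2 fold change 0.76 ± 0.19, adjusted p = 0.00331). The gene that fell was Lifr, the receptor for leukemia inhibitory factor, at 597, 947 and 484 CPM at baseline and 120, 107 and 133 CPM at 24 h (log2 fold change −2.50 ± 0.24, adjusted p = 2.88e-09). All 3 moved without overlap between the times, the receptor opposite to the other genes.

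Lcn2 is also made by neutrophils, so markers of those cells are given beside these results. Of 12 neutrophil and monocyte markers tested, 4 were called higher (Lcn2, Retnlg, Itgam and S100a9), against 11.5% over all genes tested. Without KO 24 h replicate 3, 2 were called higher. S100a9 had adjusted p = 0.0134, and 0.0927 without 24 h replicate 3, 0.0622 without baseline replicate 2 and 0.0847 without baseline replicate 3. Without Lcn2, the other 16 markers in the deposited table summed to 14.1, 10.8 and 8.96 CPM at baseline and 23.5, 13.1 and 38.8 CPM at 24 h. Retnlg had no count in any baseline library and was at 0.974, 0.245 and 0.341 CPM at 24 h. Itgam, a myeloid integrin, stood at 0.352, 0.803 and 0.566 CPM at baseline and 1.83, 0.797 and 11.4 CPM at 24 h, and without 24 h replicate 3 its log2 fold change went from 3.01 to 1.18 (adjusted p = 0.211); it also shares 68.7% of its exon bases with a second gene model. Their part in the rise of Lcn2 was not tested. In bulk tissue, more or fewer cells of a type and more or less RNA per cell cannot be told apart.

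**Figure D2:**
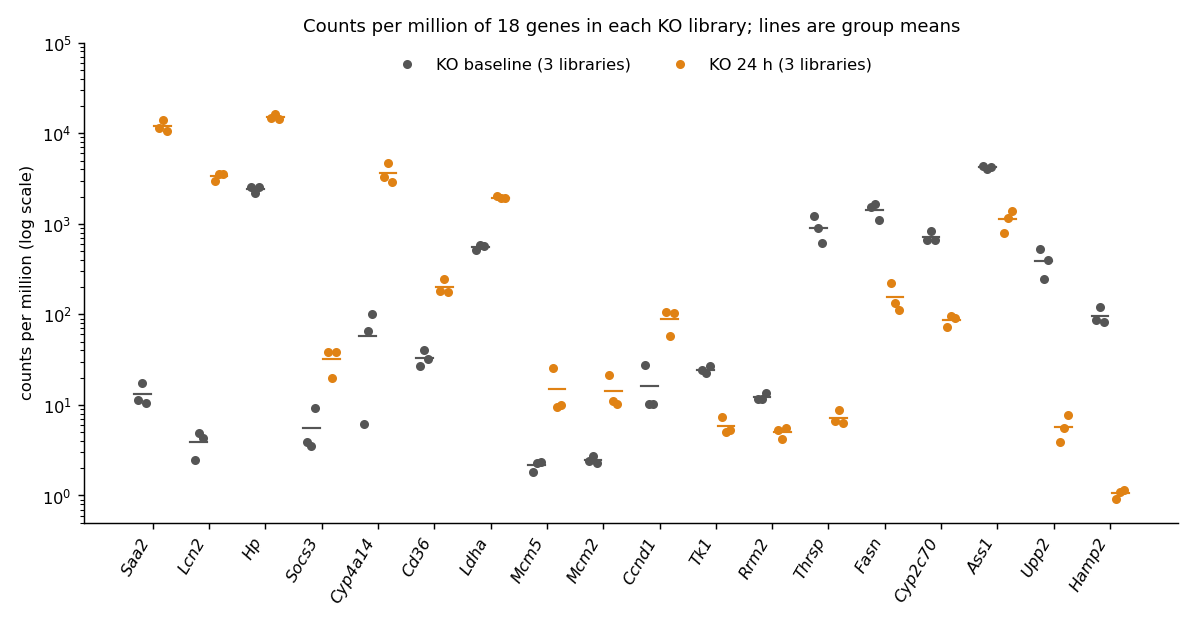
CPM on a log axis for 18 genes in each KO library: grey dots are the 3 baseline libraries, orange dots the 3 libraries at 24 h, and short lines the group means. Saa2 lies between 10.5 and 17.3 CPM at baseline and between 10564 and 13865 CPM at 24 h, and Thrsp between 612 and 1227 CPM at baseline and between 6.26 and 8.7 CPM at 24 h.

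Among 32 growth factors, receptors and binding proteins of regeneration, 7 rose and 4 fell, against 11.5% and 12.2% over all genes tested. Hgf, the main mitogen of hepatocytes and a product of stellate cells, stood at 4.5, 2.41 and 5.15 CPM at baseline and 12.4, 7.66 and 8.65 CPM at 24 h (log2 fold change 1.24 ± 0.31, adjusted p = 0.00337). Its activating protease Hgfac went the other way, at 293, 294 and 272 CPM at baseline and 123, 113 and 117 CPM at 24 h (log2 fold change −1.29 ± 0.12, adjusted p = 2.88e-09). The activin subunits Inhbb and Inhbc rose. Inhbb stood at 1.27, 0.618 and 1.18 CPM at baseline and 6.59, 5.94 and 7.74 CPM at 24 h (log2 fold change 2.72 ± 0.47, adjusted p = 4.48e-05), without overlap. Igfbp3, which binds insulin-like growth factors, stood at 23.1, 17.2 and 20.1 CPM at baseline and 6.59, 7.91 and 8.65 CPM at 24 h (log2 fold change −1.39 ± 0.30, adjusted p = 0.000741). Igfbp1 was called higher (log2 fold change 2.70 ± 0.81, adjusted p = 0.015), with levels of 76, 60.9 and 117 CPM at baseline and 160, 244 and 1246 CPM at 24 h, with the third 24 h library far above the rest. Without 24 h replicate 3 its change was 1.25 with adjusted p = 0.297. Its call was also lost without baseline replicate 1 or 2, with adjusted p of 0.0596 and 0.0609.

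Cyclin D1 (Ccnd1), which drives the passage through G1, stood at 27.9, 10.3 and 10.3 CPM at baseline and 105, 57.7 and 103 CPM at 24 h (log2 fold change 2.46 ± 0.52, adjusted p = 0.000672). It shares 23.4% of its exon bases with LTO1 on the opposite strand. Cyclin D3 (Ccnd3) stood at 17, 19.7 and 18.6 CPM at baseline and 32.3, 32.4 and 37.1 CPM at 24 h (log2 fold change 0.88 ± 0.14, adjusted p = 1.86e-05). Both cyclins were higher in every 24 h library. Of 11 genes in the list of G1 cyclins and their kinases, 4 were called higher, against 11.5% over all genes tested. Without KO 24 h replicate 1 or KO baseline replicate 2, 2 were called higher. The kinase inhibitor Cdkn1b (p27) was at 13.6, 14.7 and 11.4 CPM in the 24 h libraries, each below every baseline library (log2 fold change −0.73 ± 0.14, adjusted p = 0.000184). Cdkn1a (p21) was called higher at 2.6, 17.7 and 9.01 CPM at baseline and 33.1, 43.8 and 134 CPM at 24 h (log2 fold change 2.83 ± 0.79, adjusted p = 0.00832), with adjusted p = 0.0922 without 24 h replicate 3 and 0.0551 without baseline replicate 1. Of 13 E2F and retinoblastoma family genes 3 rose and 1 fell, against 11.5% and 12.2% over all genes tested. The number that fell was 2 without KO 24 h replicate 1 or KO baseline replicate 2 and 0 without KO 24 h replicate 3 or KO baseline replicate 3. Of 20 YAP targets 2 rose and 1 fell, against the same 11.5% and 12.2%. In this list 1 rose without any 1 library other than KO baseline replicate 1. None (0) fell without KO 24 h replicate 2, KO baseline replicate 1 or KO baseline replicate 2. Of 21 immediate early and Myc family genes, 3 were higher (Ier3, Ier5 and Fosl2) and 2 lower, again beside 11.5% and 12.2%. The number lower was 1 without KO 24 h replicate 3 and 0 without KO 24 h replicate 1, KO 24 h replicate 2 or KO baseline replicate 3. Fosl2, an AP-1 subunit, stood at 5.49, 6.61 and 6.18 CPM at baseline and 17.7, 14.1 and 21.2 CPM at 24 h (log2 fold change 1.53 ± 0.26, adjusted p = 3.34e-05).

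Genes of the replicative helicase, which is loaded onto DNA at licensing, were among those that rose. In the list of licensing and origin firing, 10 of 21 genes rose and 1 fell, against 11.5% and 12.2% over all genes tested. The median log2 change was 1.09, and 8 to 10 rose with 1 library left out. None (0) fell without KO baseline replicate 1. Mcm5 (chromosome 8, 75109569 to 75128439, plus strand, mm10), a subunit of the MCM2-7 helicase, stood at 1.83, 2.29 and 2.37 CPM at baseline and 25.3, 9.56 and 9.95 CPM at 24 h (log2 fold change 2.78 ± 0.50, adjusted p = 0.000124). Mcm2 stood at 2.39, 2.72 and 2.27 CPM at baseline and 21.2, 11.2 and 10.4 CPM at 24 h (log2 fold change 2.53 ± 0.42, adjusted p = 3.38e-05), and Mcm6 at 3.45, 2.72 and 4.22 CPM at baseline and 26.3, 15.7 and 13.8 CPM at 24 h (log2 fold change 2.42 ± 0.46, adjusted p = 0.000236). The first 24 h library was the highest for each of these 3 genes, and each baseline library was below every 24 h library. Mcm3, Mcm4 and Mcm7 completed the helicase, all called higher by 1.92, 2.37 and 0.98 on the log2 scale.

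E2F sites, found before many genes of S phase, were searched here as TTTCGCGC, TTTGGCGC, TTTCCCGC and TTTGCCGC on both strands; matches on opposite strands can overlap. Among the 10 licensing genes called higher, 7 matched the RefSeq promoter table, and 3 of those (42.9%) held such a spelling in the 250 bases before the start, against 2.16% of all genes with a promoter and 3.79% of the genes tested. They were Mcm5, Mcm6 and Mcm7. The Mcm5 window (chr8:75109259-75109508, plus strand) and the Mcm6 window (chr1:128359706-128359955, minus strand) are shown because both genes rose and both windows held overlapping matches; capitals mark all matches.
Mcm5: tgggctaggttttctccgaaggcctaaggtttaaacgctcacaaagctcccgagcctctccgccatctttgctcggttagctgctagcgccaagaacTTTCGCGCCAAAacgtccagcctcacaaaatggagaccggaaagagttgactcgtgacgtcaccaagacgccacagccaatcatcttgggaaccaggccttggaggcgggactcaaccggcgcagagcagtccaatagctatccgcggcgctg
Mcm6: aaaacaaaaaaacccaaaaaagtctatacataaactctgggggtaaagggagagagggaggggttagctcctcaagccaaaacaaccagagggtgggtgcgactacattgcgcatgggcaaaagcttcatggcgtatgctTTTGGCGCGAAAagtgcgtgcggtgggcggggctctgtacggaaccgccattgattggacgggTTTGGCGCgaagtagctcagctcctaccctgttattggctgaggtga
The CCAAT box (letters CCAAT, either strand) was found for 6 of the 7 matched genes (85.7%) and for 37.5% of all genes with a promoter. Among all genes with a matched promoter, 40.7% of those called higher and 43.6% of those called lower held it. It was also found for 81.8% of the matched cholesterol synthesis genes called lower, so it was not particular to genes that rose.

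More enzymes that make and extend DNA rose than fell. Of 30 genes for the replication fork and deoxynucleotide supply, 11 rose and 2 fell, against 11.5% and 12.2% over all genes tested. Their median was 0.27. Lig1, which joins Okazaki fragments, stood at 2.04, 1.98 and 1.39 CPM at baseline and 7.28, 4.11 and 4.61 CPM at 24 h (log2 fold change 1.58 ± 0.39, adjusted p = 0.00305), and Prim1, a primase subunit, at 2.04, 1.98 and 3.19 CPM at baseline and 6.31, 5.94 and 5.01 CPM at 24 h (log2 fold change 1.24 ± 0.29, adjusted p = 0.00195). In contrast, thymidine kinase, Tk1 (chromosome 11, 117815526 to 117826092, minus strand, mm10), stood at 24.1, 22.6 and 27.1 CPM at baseline and 7.34, 4.96 and 5.29 CPM at 24 h (log2 fold change −2.07 ± 0.28, adjusted p = 1.23e-06). Rrm2, the regulated subunit of ribonucleotide reductase, stood at 11.7, 11.6 and 13.7 CPM at baseline and 5.33, 4.17 and 5.57 CPM at 24 h (log2 fold change −1.29 ± 0.30, adjusted p = 0.00178). Each 24 h library lay below each baseline library for both genes, while all 3 were above for Lig1 and Prim1. Mcm10, which joins the helicase at firing, was also called lower, at 80.3, 28.7 and 68.6 CPM at baseline and 27.1, 30.9 and 16.7 CPM at 24 h, with overlap between the times (log2 fold change −1.25 ± 0.33, adjusted p = 0.00517). Without baseline replicate 1 its change was −0.97, with adjusted p = 0.0517.

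Of 42 genes of G2 and mitosis, 5 were called higher and 0 lower, against 11.5% and 12.2% over all genes tested, with a median of 0.09. The number called higher was 2 without KO 24 h replicate 1, 3 without KO 24 h replicate 3 and 3 without KO baseline replicate 1. Mki67, the marker of cycling cells, stood at 0.985, 1.79 and 0.875 CPM at baseline and 0.917, 0.552 and 2.05 CPM at 24 h (log2 fold change −0.03 ± 0.66, adjusted p = 0.98). Top2a stood at 0.774, 1.17 and 1.13 CPM at baseline and 3.5, 0.674 and 2.05 CPM at 24 h (log2 fold change 1.00 ± 0.56, adjusted p = 0.205), and the mitotic kinase Cdk1 at 1.06, 0.865 and 0.772 CPM at baseline and 1.38, 0.858 and 1.88 CPM at 24 h (log2 fold change 0.63 ± 0.58, adjusted p = 0.473). The libraries of the 2 times overlapped for these 3 genes, and none was called. Aurka, a spindle kinase, was higher at 2.6, 3.03 and 2.73 CPM at baseline and 5.85, 5.15 and 5.4 CPM at 24 h (log2 fold change 0.97 ± 0.26, adjusted p = 0.00578).

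**Figure D3:**
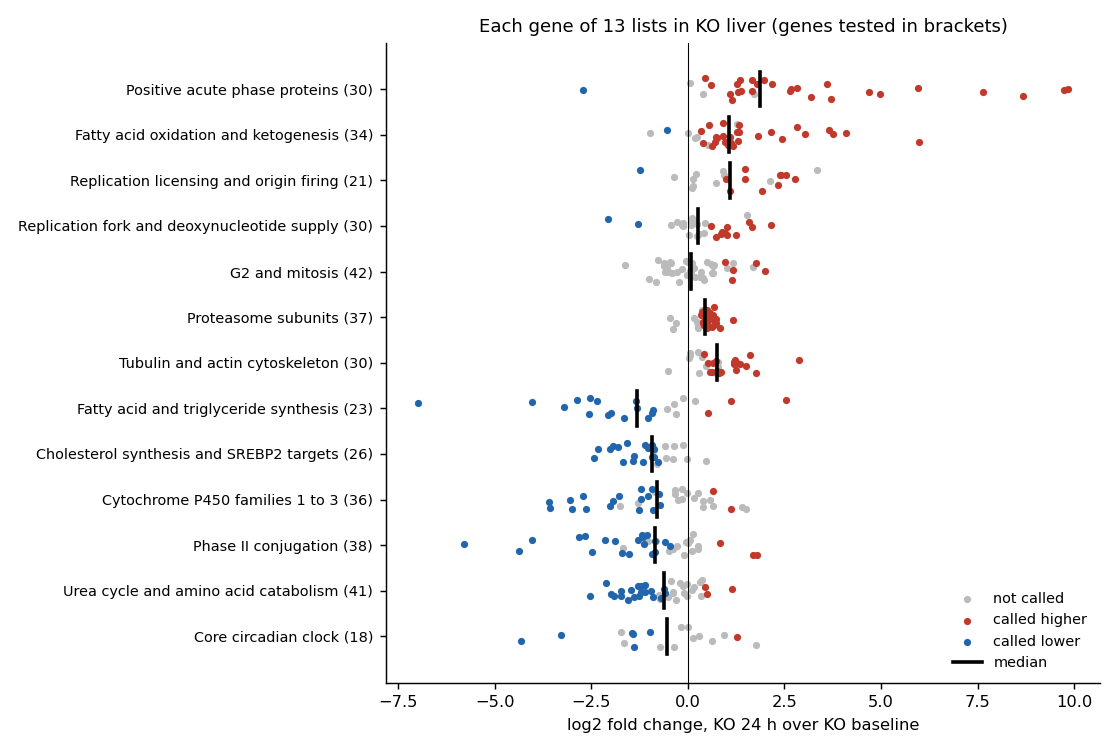
Every tested gene of 13 lists is a dot at its log2 fold change in KO liver (horizontal axis), red where called higher, blue where called lower and grey otherwise, with the list's median as a black bar. Medians run from 1.88 for acute phase proteins to −1.33 for fatty acid and triglyceride synthesis, and the fork and mitosis lists sit near 0.

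Genes of fatty acid oxidation rose. Of 34 genes of fatty acid oxidation and ketogenesis, 27 rose and 1 fell, against 11.5% and 12.2% over all genes tested. Their median was 1.06, 23 to 26 rose with 1 library left out, and 2 fell without KO 24 h replicate 2. Many of these genes are known targets of the nuclear receptor PPARα. Cyp4a14 (chromosome 4, 115486200 to 115496142, minus strand, mm10), a fatty acid omega-hydroxylase, stood at 6.12, 65.9 and 100 CPM at baseline and 3315, 4670 and 2862 CPM at 24 h (log2 fold change 5.97 ± 1.02, adjusted p = 6e-05). Cyp4a10, a related enzyme, stood at 25.6, 225 and 144 CPM at baseline and 2108, 2896 and 1710 CPM at 24 h (log2 fold change 4.09 ± 0.68, adjusted p = 4.41e-05). For both, baseline replicate 1 was the lowest library, and every 24 h library was far above the highest baseline library. The Cyp4a genes are close copies, so reads may have been split among them. Ehhadh, the peroxisomal bifunctional enzyme, stood at 302, 477 and 301 CPM at baseline and 2050, 2370 and 1431 CPM at 24 h (log2 fold change 2.44 ± 0.37, adjusted p = 8.76e-06). The thioesterases Acot1, Acot2 and Acot3 rose by 3.65, 3.02 and 3.75; they are close copies of each other, and reads could be split among them. The gene that fell was Echs1, a mitochondrial hydratase (log2 fold change −0.55 ± 0.10, adjusted p = 5.87e-05).

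Of 21 genes of fat uptake and lipid droplets, 7 rose and 1 fell, against 11.5% and 12.2% over all genes tested. Their median was 0.88. Cd36, a fatty acid transporter, stood at 27.2, 40.7 and 31.9 CPM at baseline and 180, 246 and 176 CPM at 24 h (log2 fold change 2.59 ± 0.43, adjusted p = 4.41e-05). Plin2, the main coat protein of liver lipid droplets, stood at 317, 292 and 293 CPM at baseline and 1061, 1019 and 1033 CPM at 24 h (log2 fold change 1.79 ± 0.27, adjusted p = 7.71e-06). Cidec, which enlarges droplets, stood at 1.76, 0.865 and 1.29 CPM at baseline and 15.6, 21.3 and 13.8 CPM at 24 h (log2 fold change 3.70 ± 0.57, adjusted p = 9.75e-06). Fabp4, a fatty acid carrier best known from fat cells, stood at 6.33, 5.99 and 5.97 CPM at baseline and 105, 164 and 80.5 CPM at 24 h (log2 fold change 4.26 ± 0.46, adjusted p = 4.43e-08). The second 24 h library was the highest for Cd36, Cidec and Fabp4, and for none of the 4 genes did the times overlap.

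Genes of fatty acid synthesis went the other way. Of 23 genes of fatty acid and triglyceride synthesis, 15 fell and 3 rose, against 12.2% and 11.5% over all genes tested. Their median was −1.33. In this list 1 rose without KO 24 h replicate 2, KO 24 h replicate 3, KO baseline replicate 1 or KO baseline replicate 3. Thrsp (chromosome 7, 97412938 to 97417730, minus strand, mm10), a protein of lipogenic cells, stood at 1227, 888 and 612 CPM at baseline and 6.59, 8.7 and 6.26 CPM at 24 h (log2 fold change −6.98 ± 0.54, adjusted p = 1.54e-10). Fasn, fatty acid synthase, stood at 1517, 1660 and 1104 CPM at baseline and 221, 134 and 111 CPM at 24 h (log2 fold change −3.20 ± 0.43, adjusted p = 1.52e-06), and the desaturase Scd1 at 8700, 10352 and 5487 CPM at baseline and 1273, 1677 and 1210 CPM at 24 h (log2 fold change −2.56 ± 0.49, adjusted p = 0.000202). Srebf1, the transcription factor that drives this program, stood at 407, 394 and 377 CPM at baseline and 82.5, 63.8 and 55.2 CPM at 24 h (log2 fold change −2.55 ± 0.43, adjusted p = 5.4e-05). All 4 genes were lower in every 24 h library. Mogat1, which makes diacylglycerol, was one of the 3 that rose, at 0.211, 0.185 and 0.206 CPM at baseline and 1.15, 1.65 and 0.853 CPM at 24 h (log2 fold change 2.55 ± 0.60, adjusted p = 0.00171).

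Genes of sterol synthesis fell as well. Of 26 genes of cholesterol synthesis and SREBP2 targets, 17 fell and 0 rose, against 12.2% and 11.5% over all genes tested. Their median was −0.94, and 13 to 17 fell with 1 library left out. Pmvk, an enzyme of the mevalonate pathway, stood at 107, 82.9 and 77.3 CPM at baseline and 25.7, 25.5 and 25.3 CPM at 24 h (log2 fold change −1.80 ± 0.28, adjusted p = 9.75e-06). Insig1, a brake on SREBP, stood at 656, 906 and 452 CPM at baseline and 253, 156 and 90.4 CPM at 24 h (log2 fold change −2.01 ± 0.32, adjusted p = 1.69e-05). Baseline replicate 3 was the lowest baseline library for both genes and still lay above every 24 h library. Srebf2, which encodes the transcription factor itself, stood at 78.7, 86.9 and 87.6 CPM at baseline and 104, 78.8 and 65.5 CPM at 24 h, with overlapping groups, and was not called (log2 fold change −0.03 ± 0.15, adjusted p = 0.919). The sterol regulatory element TCACCCCAC was in none of the 11 matched promoters of the genes that fell, and in 0.555% of all. At so low a share, finding none among 11 promoters says nothing about these genes. Among all genes with a matched promoter, the element was in 1.24% of those called lower, 0.482% of those called higher and 0.673% of those tested.

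Among 32 genes of glucose and glycogen metabolism, 11 fell and 5 rose, against 12.2% and 11.5% over all genes tested. Liver pyruvate kinase (Pklr) stood at 428, 355 and 303 CPM at baseline and 50.1, 49.4 and 51 CPM at 24 h (log2 fold change −2.85 ± 0.23, adjusted p = 1.57e-10), sharing 22% of its exon bases with Hcn3 on the opposite strand. Glycogen phosphorylase (Pygl) stood at 614, 638 and 624 CPM at baseline and 205, 196 and 212 CPM at 24 h (log2 fold change −1.61 ± 0.15, adjusted p = 1.79e-09). Lactate dehydrogenase A (Ldha) rose, at 515, 581 and 569 CPM at baseline and 2013, 1918 and 1919 CPM at 24 h (log2 fold change 1.81 ± 0.15, adjusted p = 1.31e-10), and so did Aldoa, by 0.64. For Pklr, Pygl and Ldha the times lay far apart. Without KO 24 h replicate 1 the number that fell was 7, and without KO 24 h replicate 3 the number that rose was 3.

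**Figure D4:**
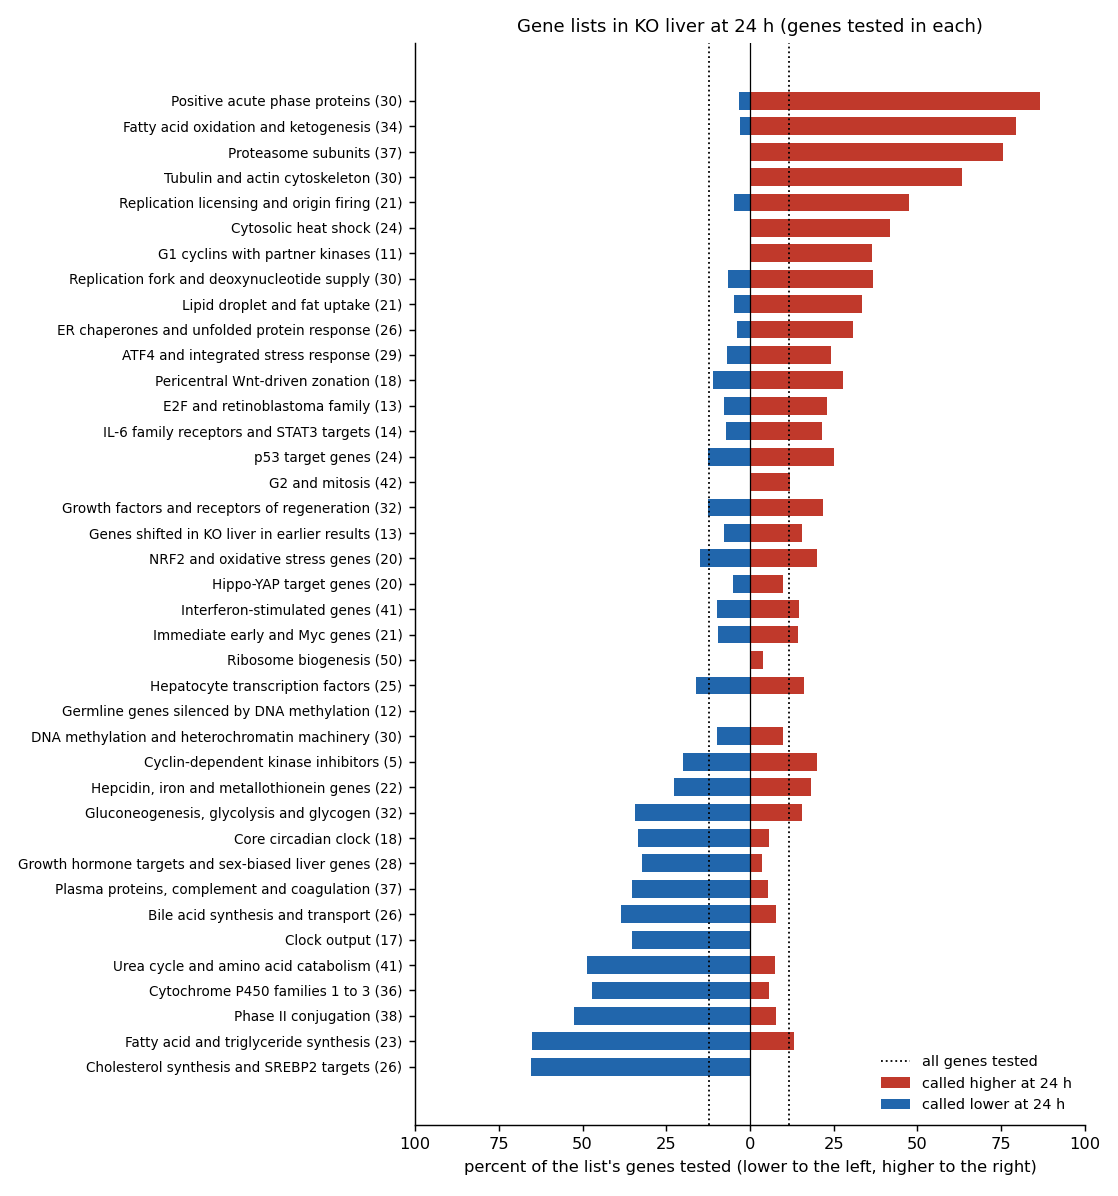
For each of 39 pathway lists, bars give the percent of its tested genes called higher (red, to the right) and lower (blue, to the left) in KO liver at 24 h, with the number tested in brackets; dotted lines mark the shares over all genes tested, 11.5% and 12.2%. Acute phase, fatty acid oxidation and proteasome lists lie farthest to the right, and cholesterol and fatty acid synthesis farthest to the left.

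Many detoxification genes fell. Over all genes tested, 12.2% fell and 11.5% rose. Of 36 cytochrome P450 genes of families 1 to 3, 17 fell and 2 rose (median −0.80), and of 38 phase II conjugation genes, 20 fell and 3 rose (median −0.85). The number that rose was 1 for the P450 genes without KO 24 h replicate 2, KO 24 h replicate 3, KO baseline replicate 1 or KO baseline replicate 3. It was 1 for phase II without KO 24 h replicate 3, KO baseline replicate 1 or KO baseline replicate 2. Cyp2c70, which makes muricholic acids in mice, stood at 666, 843 and 657 CPM at baseline and 72.7, 95.8 and 91.8 CPM at 24 h (log2 fold change −3.06 ± 0.46, adjusted p = 8.94e-06). Cyp2a5, a close copy of Cyp2a4, stood at 695, 294 and 394 CPM at baseline and 34.6, 59.8 and 20.4 CPM at 24 h (log2 fold change −3.59 ± 0.59, adjusted p = 3.21e-05). Inmt, an N-methyltransferase, stood at 1048, 939 and 829 CPM at baseline and 12.4, 26.2 and 12.3 CPM at 24 h (log2 fold change −5.79 ± 0.72, adjusted p = 5.25e-07), and the glucuronosyltransferase Ugt2b1 at 736, 822 and 712 CPM at baseline and 112, 123 and 125 CPM at 24 h (log2 fold change −2.66 ± 0.22, adjusted p = 1.4e-10). The groups did not overlap for any of these 4 genes. Gstt2, a glutathione transferase, was one of the 3 that rose, at 28.8, 16.9 and 23.8 CPM at baseline and 64.1, 96.8 and 64.6 CPM at 24 h (log2 fold change 1.70 ± 0.22, adjusted p = 5.81e-07).

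In the bile acid, amino acid and plasma protein lists, more genes fell than rose. Their counts stand beside 12.2% lower and 11.5% higher over all genes tested. Of 26 bile acid genes, 10 fell and 2 rose: Cyp27a1 stood at 493, 516 and 502 CPM at baseline and 179, 169 and 149 CPM at 24 h (log2 fold change −1.61 ± 0.23, adjusted p = 2.48e-06), while Abcb4, which moves phosphatidylcholine into bile, rose, at 195, 166 and 172 CPM at baseline and 464, 415 and 374 CPM at 24 h (log2 fold change 1.23 ± 0.16, adjusted p = 5.61e-07). Of 41 urea cycle and amino acid genes, 20 fell and 3 rose. In this list 1 rose without KO 24 h replicate 2, KO baseline replicate 1 or KO baseline replicate 3. Ass1, the urea cycle enzyme that makes argininosuccinate, stood at 4384, 4033 and 4283 CPM at baseline and 793, 1167 and 1396 CPM at 24 h (log2 fold change −1.92 ± 0.24, adjusted p = 2.64e-07), and the glutaminase Gls2 at 533, 533 and 519 CPM at baseline and 76.3, 93.4 and 102 CPM at 24 h (log2 fold change −2.54 ± 0.27, adjusted p = 2.26e-08). Oat, ornithine aminotransferase, was higher in every 24 h library at 702, 696 and 681 CPM at baseline and 1434, 1459 and 1726 CPM at 24 h (log2 fold change 1.15 ± 0.20, adjusted p = 5.81e-05). Of 37 plasma protein, complement and coagulation genes, 13 fell and 2 rose (C3 and Mbl1). Serpina6, which carries corticosteroids, stood at 297, 195 and 219 CPM at baseline and 28, 32.8 and 26 CPM at 24 h (log2 fold change −3.03 ± 0.40, adjusted p = 1.11e-06), and the complement subunit C8b at 581, 557 and 545 CPM at baseline and 250, 243 and 238 CPM at 24 h (log2 fold change −1.20 ± 0.13, adjusted p = 2.26e-08).

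Of 25 hepatocyte transcription factors, 4 rose and 4 fell, against 11.5% and 12.2% over all genes tested. Without baseline replicate 1 these were 0 and 2, and 2 and 1 rose without 24 h replicates 1 and 3. Cebpa, a factor of quiescent hepatocytes, stood at 351, 355 and 355 CPM at baseline and 157, 166 and 116 CPM at 24 h (log2 fold change −1.27 ± 0.19, adjusted p = 5.7e-06), and the glucocorticoid receptor Nr3c1 at 90.5, 88.1 and 99.6 CPM at baseline and 64.7, 52.6 and 48.9 CPM at 24 h (log2 fold change −0.74 ± 0.12, adjusted p = 1.65e-05). Among 28 targets of growth hormone and sex-biased genes, 9 fell and 1 rose, and the receptor Ghr stood at 650, 624 and 626 CPM at baseline and 298, 288 and 249 CPM at 24 h (log2 fold change −1.19 ± 0.12, adjusted p = 9.06e-09). Hsd3b5, a male-biased steroid enzyme, stood at 358, 269 and 269 CPM at baseline and 43.5, 33.5 and 17.6 CPM at 24 h (log2 fold change −3.24 ± 0.72, adjusted p = 0.00117). Both were lower in every 24 h library. Of 18 pericentral Wnt targets, 5 rose and 2 fell (3 rose without baseline replicate 1), against 11.5% and 12.2% over all genes tested. Cyp1a2, a pericentral P450, stood at 726, 501 and 767 CPM at baseline and 167, 198 and 217 CPM at 24 h (log2 fold change −1.78 ± 0.40, adjusted p = 0.00122). Lect2 stood at 90.2, 86.6 and 92.2 CPM at baseline and 167, 198 and 165 CPM at 24 h (log2 fold change 0.98 ± 0.13, adjusted p = 1.27e-06).

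Clock genes differed between the 2 groups. Over all genes tested, 12.2% were called lower and 11.5% higher. Of 18 core clock genes, 6 were called lower and 1 higher, and of 17 clock output genes 6 were lower and 0 higher (1 higher without KO baseline replicate 2). Per3 stood at 30, 7.29 and 12.5 CPM at baseline and 2.35, 1.47 and 1.19 CPM at 24 h (log2 fold change −3.30 ± 0.62, adjusted p = 0.000186), and Per2 at 29, 26.4 and 13.6 CPM at baseline and 7.8, 9.25 and 9.04 CPM at 24 h (log2 fold change −1.40 ± 0.32, adjusted p = 0.00167). Dbp, a transcription factor under direct clock control, stood at 84.2, 5.5 and 25.5 CPM at baseline and 1.78, 2.08 and 0.683 CPM at 24 h (log2 fold change −4.66 ± 1.03, adjusted p = 0.00114), sharing 18% of its exon bases with Sphk2; its baseline libraries differed widely among themselves. Arntl (Bmal1), whose rhythm runs opposite, stood at 1.97, 23.5 and 8.7 CPM at baseline and 19.4, 18.7 and 27.3 CPM at 24 h and was not called (log2 fold change 0.93 ± 0.70, adjusted p = 0.372); its lowest value and Dbp's highest were both in baseline replicate 1. Without that library, 4 core clock genes were called lower and 0 higher. The number called higher was 3 without KO baseline replicate 2 and 0 without KO 24 h replicate 3 or KO baseline replicate 3. Upp2, a uridine phosphorylase in the clock output list, stood at 530, 244 and 394 CPM at baseline and 3.9, 5.52 and 7.74 CPM at 24 h (log2 fold change −6.09 ± 0.68, adjusted p = 9.24e-08). The labels give no hour for baseline sampling, and the part of the time of day in these changes was not tested.

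Genes of the proteasome and the cytoskeleton rose. Counts in this paragraph stand beside 11.5% higher and 12.2% lower over all genes tested. Of 37 proteasome subunits, 28 rose and 0 fell, with a median of 0.45; 22 to 28 rose with 1 library left out. The catalytic subunit Psmb5 stood at 32.8, 33 and 39.8 CPM at baseline and 67, 88.4 and 84 CPM at 24 h (log2 fold change 1.18 ± 0.18, adjusted p = 9.72e-06), and the deubiquitinase Psmd14 at 35.8, 41.2 and 38.4 CPM at baseline and 63.1, 75.9 and 67.4 CPM at 24 h (log2 fold change 0.84 ± 0.10, adjusted p = 2.04e-07). Of 30 tubulin and actin genes, 19 rose and 0 fell, with a median of 0.74; Tubb2a stood at 25.5, 83.2 and 61.4 CPM at baseline and 369, 425 and 454 CPM at 24 h (log2 fold change 2.87 ± 0.46, adjusted p = 2.41e-05) and Anxa2 at 11.8, 10.2 and 10.6 CPM at baseline and 26.9, 39 and 33 CPM at 24 h (log2 fold change 1.60 ± 0.31, adjusted p = 0.000236). In none of these 4 genes did the times overlap. Of 24 cytosolic heat shock genes, 10 rose, but 5 without KO 24 h replicate 3, 4 without KO baseline replicate 1 and 6 without KO baseline replicate 3. Hsp90aa1 stood at 85.6, 197 and 111 CPM at baseline and 313, 422 and 434 CPM at 24 h (log2 fold change 1.57 ± 0.29, adjusted p = 0.000121).

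Lists of stress genes had members that moved each way. The counts below stand beside 11.5% higher and 12.2% lower over all genes tested. Of 26 endoplasmic reticulum chaperone and unfolded protein response genes, 8 rose and 1 fell (5 rose without baseline replicate 1, and 0 fell without 24 h replicate 1 or 2 or baseline replicate 1 or 3); the disulfide isomerase Pdia6 stood at 265, 391 and 317 CPM at baseline and 519, 624 and 571 CPM at 24 h (log2 fold change 0.82 ± 0.17, adjusted p = 0.000496). Of 29 ATF4 targets, 7 rose and 2 fell (4 rose without baseline replicate 1, and 1 fell without any 1 of the 24 h libraries or baseline replicate 3). Atf5 rose, at 173, 301 and 227 CPM at baseline and 562, 579 and 506 CPM at 24 h (log2 fold change 1.23 ± 0.18, adjusted p = 5.41e-06), while the stress hormone Gdf15 stood at 34.7, 123 and 32.3 CPM at baseline and 1.72, 2.51 and 10.9 CPM at 24 h (log2 fold change −3.65 ± 0.69, adjusted p = 0.000215). Of 24 p53 targets, 6 rose and 3 fell (3 rose without 24 h replicate 3), with the death receptor Fas at 8.93, 11.8 and 12.1 CPM at baseline and 27.4, 31.5 and 24.9 CPM at 24 h (log2 fold change 1.35 ± 0.21, adjusted p = 1.1e-05) and Sesn1 at 16.3, 18.4 and 15 CPM at baseline and 10.9, 8.27 and 7.96 CPM at 24 h (log2 fold change −0.87 ± 0.18, adjusted p = 0.000445). Of 20 NRF2 genes, 4 rose and 3 fell, led by the sulfiredoxin Srxn1 at 40.2, 40.4 and 32.9 CPM at baseline and 74.6, 82.1 and 75.9 CPM at 24 h (log2 fold change 1.04 ± 0.20, adjusted p = 0.000261). Ribosome biogenesis had 2 of 50 genes called higher, with a median of 0.11, and 11 without KO baseline replicate 2, against 1 without KO 24 h replicate 3, KO baseline replicate 1 or KO baseline replicate 3; 0 were lower, and 1 without KO baseline replicate 3. Bysl, needed for the small ribosomal subunit, stood at 15.9, 20.8 and 14.3 CPM at baseline and 25.9, 25 and 30.9 CPM at 24 h (log2 fold change 0.68 ± 0.15, adjusted p = 0.00102).

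Hamp encodes hepcidin, which restrains iron export. Hamp and the related gene Hamp2 moved opposite to most acute phase genes. Hamp2, which shares 15.3% of its exon bases with a gene on the opposite strand, stood at 86.1, 120 and 82.4 CPM at baseline and 0.917, 1.1 and 1.14 CPM at 24 h (log2 fold change −6.50 ± 0.82, adjusted p = 6.16e-07). Hamp stood at 700, 305 and 330 CPM at baseline and 79.7, 46.1 and 76.4 CPM at 24 h (log2 fold change −2.72 ± 0.79, adjusted p = 0.0113), with adjusted p = 0.0548 without 24 h replicate 2 and 0.0592 without baseline replicate 1. Both were lower in every 24 h library. The zinc importer Slc39a4 was at 46.9, 62 and 56.2 CPM at baseline and 23.3, 22.1 and 27.9 CPM at 24 h (log2 fold change −1.17 ± 0.26, adjusted p = 0.00126), and ceruloplasmin (Cp) at 947, 1043 and 1147 CPM at baseline and 2637, 2142 and 2084 CPM at 24 h (log2 fold change 1.13 ± 0.24, adjusted p = 0.000758).

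Uhrf1 keeps DNA methylation in place, so lists of the methylation machinery, of germline genes that methylation silences, and of interferon-stimulated genes were examined. Of 30 genes of the DNA methylation and heterochromatin machinery, 3 rose and 3 fell, against 11.5% and 12.2% over all genes tested. Without KO 24 h replicate 2, KO 24 h replicate 3 or KO baseline replicate 3, 1 rose and 1 fell. Hells, a chromatin remodeler needed for methylation, stood at 0.281, 0.68 and 0.978 CPM at baseline and 5.39, 2.7 and 2.56 CPM at 24 h (log2 fold change 2.39 ± 0.52, adjusted p = 0.00087). Of 12 germline genes silenced by methylation that were tested, 0 were called, with a median of −0.03. Of 41 interferon-stimulated genes, 6 rose and 4 fell. Zbp1, a sensor of unusual nucleic acids, stood at 3.94, 4.08 and 4.69 CPM at baseline and 25.6, 26.8 and 26.1 CPM at 24 h (log2 fold change 2.62 ± 0.37, adjusted p = 2.45e-06), and Isg15 at 9.22, 7.29 and 8.55 CPM at baseline and 21.8, 21.8 and 26.2 CPM at 24 h (log2 fold change 1.48 ± 0.29, adjusted p = 0.000214). The chemokine Cxcl9 went the other way, at 5.49, 6.24 and 12.8 CPM at baseline and 1.78, 1.29 and 1.99 CPM at 24 h (log2 fold change −2.28 ± 0.44, adjusted p = 0.000188). Without 24 h replicate 2, 1 of these genes was called lower, and without baseline replicate 1, 2 were.

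Hepatocyte markers were abundant, which matches the label of liver. Counts of called markers below stand beside 11.5% higher and 12.2% lower over all genes tested. Of 12 hepatocyte markers, 0 rose and 4 fell, and they summed to 97671, 98219 and 104979 CPM at baseline and 73752, 67697 and 81228 CPM at 24 h; albumin (Alb) was not called (log2 fold change −0.45 ± 0.22, adjusted p = 0.143). Of 18 macrophage markers, 1 rose and 1 fell (0 fell without 24 h replicate 1 or 3 or baseline replicate 1 or 3), and their sum was 468.7, 450.7 and 606.7 CPM at baseline and 626.8, 313.8 and 764.4 CPM at 24 h, lowest in 24 h replicate 2. Marco, a scavenger receptor of macrophages, stood at 4.57, 4.76 and 6.8 CPM at baseline and 68.2, 28.2 and 104 CPM at 24 h (log2 fold change 3.62 ± 0.81, adjusted p = 0.00128). Of 20 endothelial markers 2 rose and 0 fell. In that list 1 rose without baseline replicate 1, and 1 fell without 24 h replicate 2. Of 22 stellate cell and fibroblast markers 2 rose and 4 fell, and 1 rose without 24 h replicate 3. The 9 lymphocyte markers tested summed to 21.67, 21.81 and 17.3 CPM at baseline and 20.98, 7.844 and 31.57 CPM at 24 h, with 0 called by edgeR's test. Of 6 markers of exocrine pancreas and gut 2 rose and 2 fell. The number that rose was 1 without 24 h replicate 2 or baseline replicate 2 or 3. Of 11 cholangiocyte markers 1 rose, and 0 without 24 h replicate 3 or baseline replicate 1. The marker Sctr had no count in the 6 libraries. Of 9 erythroid markers 3 fell; Car1, a carbonic anhydrase of red cells, stood at 11.3, 6.36 and 10.1 CPM at baseline and 0.287, 0.797 and 0.228 CPM at 24 h (log2 fold change −4.41 ± 0.42, adjusted p = 2.16e-09).

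The same comparison in WT livers called 3157 genes (22.4%), 1475 higher (10.5%) and 1682 lower (11.9%). Of the genes called in KO, 2181 were also called in WT in the same direction, which is 65.2% of the KO calls and 69.1% of the WT calls, and 0 were called in opposite directions. Of the 3343 genes called in KO, 3283 (98.2%) had a WT change of the same sign. Across all genes the log2 changes had a Pearson r of 0.793, a description in which genes are not independent replicates. The difference of the 2 changes, tested directly, was called for 0 of 14090 genes (0%) by edgeR, with a smallest adjusted p of 0.195 and 456 genes at an unadjusted p under 0.05, for 1 gene by DESeq2 and for 0 by limma on FPKM. This does not show that the genotypes responded alike.

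**Figure D5:**
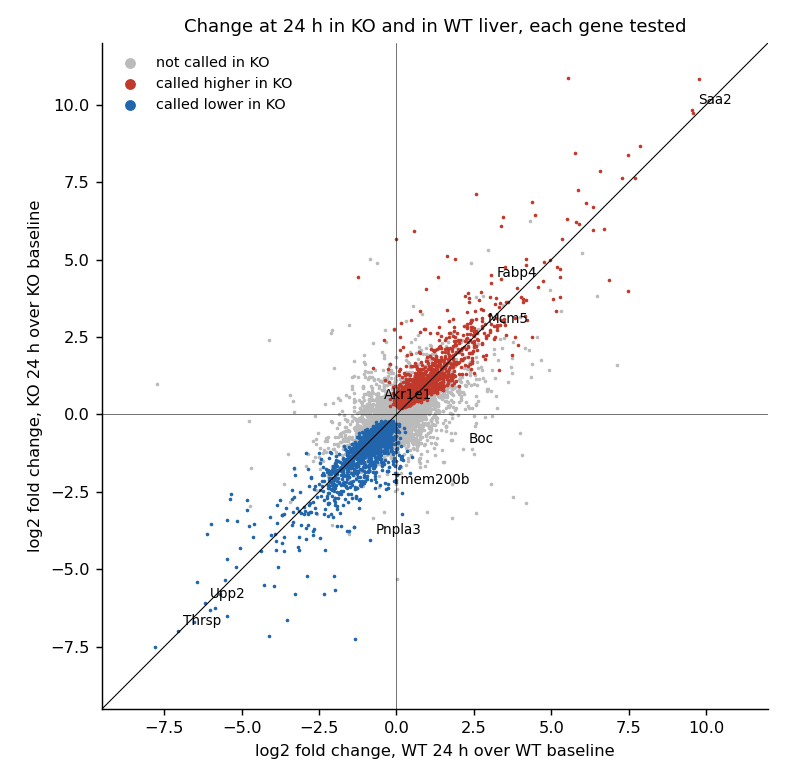
Each dot is a gene tested, with its log2 fold change at 24 h against baseline in WT liver (horizontal) and in KO liver (vertical), red or blue where called in KO; the diagonal marks equal change. Saa2, Thrsp and Upp2 lie near the diagonal, and Pearson r across genes is 0.793.

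Side by side, the lists had these values in the 2 genotypes. Over all genes tested, 10.5% were called higher and 11.9% lower in WT. Acute phase proteins had 26 of 30 genes higher in WT (median 2.13, against 1.88 in KO), fatty acid oxidation 23 of 34 (0.66, against 1.06), and licensing 12 of 21 (1.27, against 1.09). Cholesterol synthesis had 9 of 26 lower in WT (−0.58, against −0.94), the proteasome 14 of 37 higher (0.22, against 0.45) and heat shock 4 of 24 (0.23, against 0.53). The core clock had 8 of 18 lower in WT (−1.07, against −0.55) and clock output 9 of 17 (−1.26, against −0.53). Immediate early and Myc genes had 8 of 21 higher in WT (0.71, against 0.29). Which genotype had the larger median change thus varied by list. No gene in these lists passed the test of the difference between genotypes.

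The 8 genes with the smallest p for that difference were Akr1e1, Ptpru, Atg16l2, Boc, Pik3c2g, Pgap2, Tmem200b and Plekhh2. Akr1e1, an aldo-keto reductase, stood at 32.6, 32.6 and 29 CPM at baseline and 35.4, 44.8 and 38.9 CPM at 24 h in KO, and at 50.7, 41.8 and 35.1 CPM at baseline and 27.7, 27.7 and 30 CPM at 24 h in WT. Its change was 0.34 in KO and −0.58 in WT, a difference of 0.92 ± 0.18 with adjusted p = 0.195 in edgeR and 0.0221 in DESeq2. Tmem200b stood at 3.8, 9.45 and 3.71 CPM at baseline and 1.03, 0.919 and 1.19 CPM at 24 h in KO and at 1.17, 1.14 and 0.764 CPM against 0.412, 1.1 and 0.976 CPM in WT, so its KO baseline was the group apart. The difference was −2.10 ± 0.57, with unadjusted p = 0.000768 and adjusted p = 1. Pik3c2g, a lipid kinase, showed the same order, at 7.88, 12.4 and 9.83 CPM at baseline and 3.5, 4.17 and 3.01 CPM at 24 h in KO and at 5.18, 4.79 and 2.67 CPM against 3.97, 3.11 and 4.56 CPM in WT (difference −1.38 ± 0.37, unadjusted p = 0.000615).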

How the data were processed

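RNA of whole liver was sequenced as poly(A) libraries with 100-base paired-end reads, per the labels' protocols. Whole-number counts per gene were deposited by the authors for 45 libraries, beside an FPKM table that the authors deposited too; the submitters' processing notes name Trimmomatic, FastQC 0.11.5, TopHat2 2.1.0, HTSeq, Cufflinks 2.2.1 and DESeq2, with mm10. The strand setting of the counting is not given in the sources used here. The 6 KO libraries compared held 13463089 to 18596560 counts each.

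Counts were fitted in R 4.3.3 with edgeR 4.0.16 (TMM factors, filterByExpr by group, robust quasi-likelihood test) over all 45 libraries in 16 groups without covariates, and contrasts gave KO 24 h against KO baseline, the same in WT, and the difference of both changes. P-values were Benjamini-Hochberg adjusted over 14090 genes. CPM use TMM-scaled totals. The fit was tested on simulated data first. Alternatives were DESeq2 1.42.0, RLE factors, no filter, only the libraries compared, the replicate number as a block, the series without 96 h libraries, each library left out, and limma 3.58.1 on log2(FPKM + 1) and log2(FPKM + 0.1), with FPKM of at least 0.5 in 2 libraries. All 19966 gene IDs were looked up in GENCODE vM21 (mm10), and 19863 had a symbol; promoter sequences are RefSeq's, build GRCm38.p6.

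Genes were named by rule: the 15 largest changes in each direction at a mean log2 CPM of at least 2, the 6 called genes with most counts in each direction, up to 5 called genes per list and direction, and the 8 with the smallest p for the difference between genotypes; a selection is printed. Apcs, Ehhadh, Srebf1, Srebf2, Mcm3, Mcm7, Mki67, Top2a, Cdk1, Alb and Arntl were added after their values were seen. The members and lists were chosen with earlier results of these data known. No sham libraries were analysed here.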

Additional observations from a re-analysis of the deposited data

How the results depend on the processing

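Under the alternatives tried, the number of genes called between KO 24 h and KO baseline (3343) ranged from 2370 to 2967 with 1 of the 6 libraries left out and was 3473 with DESeq2, 3352 with RLE factors, 3016 without a filter, 2951 with only the libraries compared, 3734 without the 96 h libraries, and 2843 and 2829 with limma on log2(FPKM + 1) and log2(FPKM + 0.1). With the replicate block it was 3240. Same-numbered KO libraries correlated at 0.01, 0.017 and 0.036 in their deviations from the group means, and differently numbered ones at −0.079 to 0.059. These few values neither show nor exclude a pairing by replicate number. Of 114 genes in the text that edgeR called, 107 kept the call with each KO library left out and 103 in every setting that gave a value for them. The WT count (3157) was 2897 and 3011 on FPKM, of which 63.2% and 64.1% were higher, against 46.7% in the count fit; the cause was not tested. The difference between genotypes, called for 0 genes by edgeR, was called for 1 gene (Akr1e1) with DESeq2 and for 0 to 1 with 1 library left out, the 1 being Akr1e1 without WT baseline replicate 3 (adjusted p = 0.0307). Among values not called, signs changed with 1 library left out for Mki67 (from −0.7 to 0.35), Srebf2 (from −0.23 to 0.12) and Pgap2 (from −0.01 to 0.13). Albumin (Alb) on FPKM gave 9.49 and 11.71, with FPKM listed at 0 in KO baseline replicates 2 and 3. Genes near 1 CPM rest on few counts in each library.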

Other observations

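The KO livers sampled later in the series set 3 replication genes in their course, given as the lowest and highest of 3 libraries with no test. For Mcm5 the libraries ranged from 9.56 to 25.3 CPM at 24 h, and from 126 to 147 CPM when sampled at 30 h. Rrm2 ranged from 11.6 to 13.7 CPM at baseline and from 4.17 to 5.57 CPM at 24 h. It was at 82.1 to 129 CPM by 30 h, and 40 h libraries had 129 to 270 CPM. Tk1 ranged from 22.6 to 27.1 CPM at baseline and from 4.96 to 7.34 CPM at 24 h. It was at 29.7 to 39.4 CPM by 30 h, and 40 h libraries had 53.9 to 66.2 CPM. For Rrm2 and Tk1 the 24 h libraries were thus the lowest of these 4 times, and did not overlap with any of the other 3. The later time named in the descriptions of the baseline libraries is 40 h. Whether baseline and 40 h livers were handled together was not tested.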
